A study of Mus musculus with 2 samples.

Results

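The genes described here mark the zones of the liver lobule in hepatocytes. They are 5 genes expressed mainly around the central vein (Glul, Cyp2e1, Cyp1a2, Oat and Gulo) and 5 expressed mainly around the portal tract (Cps1, Ass1, Arg1, Hal and Cyp2f2). They were taken by symbol from the GENCODE M21 annotation of GRCm38, and all 10 had a single entry among the 38320 gene entries of each library. RNA-seq was performed on cells from adult male C57/Bl6 mice that received carbon tetrachloride (CCl4) for 5 weeks to induce fibrosis. Control mice were Foxf1fl/fl, which carry the floxed alleles without Cre, and theirs is called the control library below. The αSMACreER;Foxf1-/- mice carried the same floxed alleles and a tamoxifen-inducible Cre under the α-smooth muscle actin promoter, which is active in myofibroblasts and smooth muscle and not in hepatocytes, and their library is called the knockout. Tamoxifen was injected repeatedly during the injury in both genotypes to activate Cre. Cell suspensions from the livers were plated for 2 hours, the cells that adhered were collected, and RNA was pooled within each genotype into 1 library. The number of mice in each pool was not given in the sources used here. Differences between the genotypes therefore have no replicate check, no test between genotypes was possible, and the intervals given below cover counting error in these 2 libraries and no variation between animals.

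Hepatocytes along the lobule divide their work. Those next to the portal tract receive oxygen-rich blood and carry out most urea synthesis, gluconeogenesis and amino acid breakdown, whereas those next to the central vein hold most of the cytochrome P450 enzymes and capture the remaining ammonium as glutamine. Wnt ligands from central vein endothelium maintain the pericentral programme. CCl4 is converted to its toxic radical by the pericentral enzyme CYP2E1, so it injures the pericentral zone first. The comparison asked whether genes of both zones were lower alike in the αSMACreER;Foxf1-/- library.

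Values are FPKM, fragments normalised to transcript length and to the number of mapped fragments, which can be compared between genes. The depth was read off the steps between low values and is rough, at about 9890000 reads for the control and 11300000 for the knockout, since only 47.3% and 46.5% of the low values used lay within 0.1 of a whole read. For differences, knockout values were divided by 1.02, their median ratio to the control, and the log2 of FPKM plus 0.1 in the control was subtracted from that in the knockout. A gene was said to have fallen or risen if it differed by at least 1.5-fold, the fold used in the study. Foxf1 was not analysed here. The label calls the cells stromal. Lrat, a defining gene of quiescent stellate cells, measured 0.0778 FPKM in the control library and 0.111 FPKM in the knockout, and Alb, which encodes the hepatocyte protein albumin, had 2292 and 912. Other genes of stellate cells and myofibroblasts ranged widely, from Des (desmin) at 1.70 and 3.29 and Acta2 (α-smooth muscle actin) at 7.77 and 5.65 to the matrix genes Col1a1 at 70.2 and 103, Col3a1 at 115 and 164 and Dcn at 127 and 186.

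Of the 10 zonation genes, 7 fell and 0 rose in the αSMACreER;Foxf1-/- library. Among all 12692 genes whose FPKM averaged 1 or more, 13.2% fell and 12.8% rose. The 7 were Cyp2e1, Cyp1a2 and Gulo of the pericentral genes and Cps1, Ass1, Hal and Cyp2f2 of the periportal genes, and each had a counting interval below 0. Glul, Oat and Arg1 stayed within 1.5-fold. Both zones thus held genes that fell and genes that did not. The balance over all genes depended on the scaling, with 1624 genes higher and 1678 lower by the median ratio, 2690 and 1130 at an equal FPKM sum, and 2245 and 1291 at the upper quartile. The median of all genes then lay at 0.20 and 0.12 on the log2 scale.

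**Figure D1:**
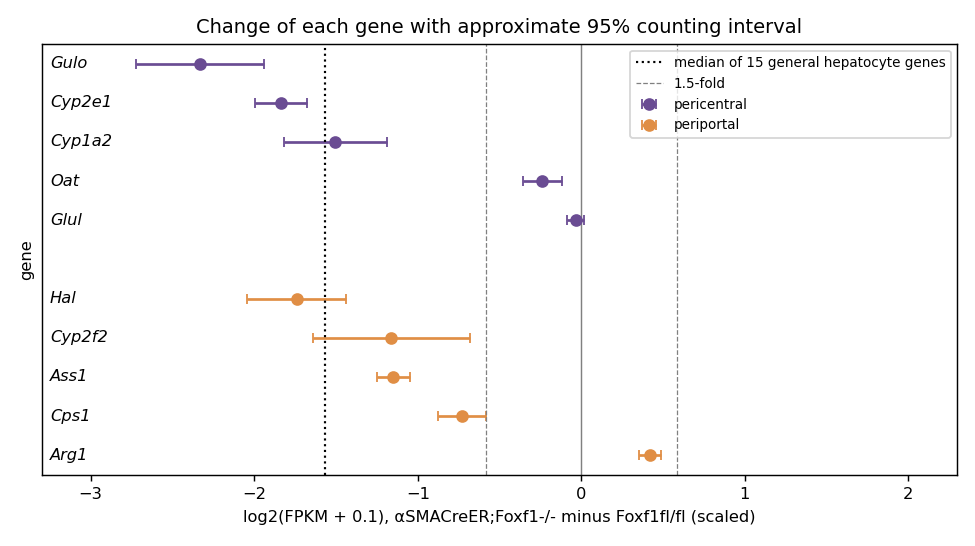
Log2 difference of each zonation gene, αSMACreER;Foxf1-/- minus Foxf1fl/fl (horizontal axis), with its approximate 95% counting interval (bars), for pericentral genes (purple) and periportal genes (orange). Gulo, Cyp2e1, Cyp1a2, Hal, Cyp2f2, Ass1 and Cps1 lie left of the 1.5-fold line (dashed), Oat, Glul and Arg1 lie between the dashed lines, and the dotted line marks the median of 15 general hepatocyte genes, −1.57.

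The pericentral genes split into 3 that fell strongly and 2 that did not. Cyp2e1 (ENSMUSG00000025479, chromosome 7 from 140763739 to 140774975, plus strand) encodes the cytochrome P450 that activates CCl4 and oxidises ethanol. It measured 94.3 FPKM in the control library and 26.9 FPKM in the knockout. Expression was thus 3.58-fold lower, a log2 difference of −1.84 (counting interval −1.99 to −1.68) that rests on about 1290 and 420 reads. Cyp1a2 (ENSMUSG00000032310, chromosome 9 from 57676937 to 57683655, minus strand), a cytochrome P450 of drug and caffeine metabolism induced through the aryl hydrocarbon receptor, had 15.5 and 5.51. It was 2.87-fold lower, with a log2 difference of −1.50 (−1.82 to −1.19). Gulo (ENSMUSG00000034450, chromosome 14 from 65986787 to 66009210, minus strand) encodes the enzyme of the last step of vitamin C synthesis and had 13.1 and 2.57. It showed the largest difference of the 10 genes, 5.19-fold lower, with a log2 difference of −2.33 (−2.72 to −1.94) on about 267 and 60 reads. Only 152 of the 12692 genes (1.2%, Gulo included) had a value as low.

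The remaining pericentral genes handle nitrogen. Glul (ENSMUSG00000026473, chromosome 1 from 153899944 to 153909723, plus strand) encodes glutamine synthetase, which in hepatocytes is restricted to the cells nearest the central vein but is also made by many other cell types, macrophages among them. Glul measured 204 FPKM in the control library and 203 FPKM in the knockout. Its log2 difference was −0.04 (counting interval −0.09 to 0.02), on about 5240 and 5960 reads, so a difference of 1.5-fold lay well outside the counting error. Of the 75-base stretches of its transcripts 6.63% also stand in other genes, among them the processed pseudogene Glns-ps1, which had 2.48 and 3.59. Oat (ENSMUSG00000030934, chromosome 7 from 132557475 to 132576398, minus strand) encodes ornithine aminotransferase, a mitochondrial enzyme present in many tissues. It had 58.6 and 50.6, a log2 difference of −0.24 (−0.36 to −0.12). Glul and Oat were thus the pericentral genes with the highest levels in αSMACreER;Foxf1-/- cells, and their order relative to Cyp2e1 had changed for Oat, which lay below Cyp2e1 in Foxf1fl/fl cells and above it in αSMACreER;Foxf1-/- cells.

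Of the 5 periportal genes, 4 fell. Cps1 (ENSMUSG00000025991, chromosome 1 from 67123026 to 67231259, plus strand) encodes carbamoyl phosphate synthetase, the mitochondrial entry enzyme of the urea cycle, and measured 16.5 FPKM in the control library and 10.1 FPKM in the knockout. It was 1.67-fold lower, a log2 difference of −0.73 (counting interval −0.88 to −0.58), and it no longer reached 1.5-fold when the FPKM sums were made equal (−0.54). Ass1 (ENSMUSG00000076441, chromosome 2 from 31470207 to 31520672, plus strand) encodes argininosuccinate synthase, which joins citrulline and aspartate in the urea cycle and also serves arginine synthesis in other cells. It had 158 and 72.5 and was 2.22-fold lower, a log2 difference of −1.15 (−1.25 to −1.05). Of the 75-base stretches of its transcripts, 32.6% also stand in the processed pseudogene Gm5424, which was listed at 0 in both libraries, so reads of the pair may not have been told apart.

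Hal (ENSMUSG00000020017, chromosome 10 from 93488768 to 93519304, plus strand) encodes histidine ammonia-lyase, which starts histidine breakdown. It measured 6.25 FPKM in the control library and 1.83 FPKM in the knockout. The log2 difference of −1.74 (counting interval −2.05 to −1.44), 3.47-fold lower, was the largest among the periportal genes. Cyp2f2 (ENSMUSG00000052974, chromosome 7 from 27119909 to 27133660, plus strand), a cytochrome P450 that activates naphthalene, had 5.81 and 2.59. Its log2 difference was −1.16 (−1.64 to −0.68), with the fewest reads of the 10 genes, about 95.8 and 48.9. The antisense gene Gm15883 overlaps Cyp2f2 exons and had 1.28 and 0.438. Whether strand was used in counting is not given in the sources used here.

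Arg1 (ENSMUSG00000019987, chromosome 10 from 24915208 to 24927470, minus strand) encodes arginase 1, which releases urea from arginine in hepatocytes and is also a marker of alternatively activated macrophages. It measured 230 FPKM in the control library and 314 FPKM in the knockout, the highest level of the 10 genes in each library. Arg1 was the only one of the 10 with a value above 0, at a log2 difference of 0.42 (counting interval 0.35 to 0.49), and it did not reach 1.5-fold. It passed 1.5-fold when the FPKM sums were made equal (0.61) and when the trend over transcript length was removed (0.73).

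**Figure D2:**
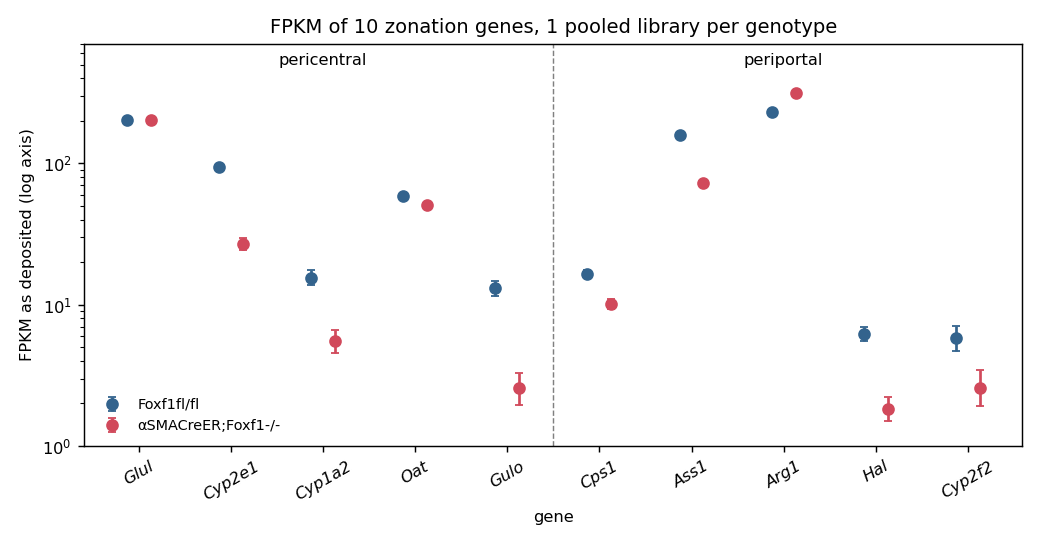
FPKM as deposited (vertical log axis) of the 10 zonation genes in the Foxf1fl/fl library (blue) and the αSMACreER;Foxf1-/- library (red), 1 pooled library each, with approximate 95% counting intervals (bars, smaller than the points for the highest genes). Arg1 and Glul are highest in both libraries, and Gulo, Hal and Cyp2e1 show the widest gaps between the libraries.

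The order of the levels differed between the libraries in its middle and among the lowest genes. In Foxf1fl/fl cells Arg1 was followed by Glul, Ass1, Cyp2e1 and Oat, and these 5 differed from each other beyond their counting intervals. Cps1, Cyp1a2 and Gulo came next, with neighbouring intervals that overlapped (15.4 to 17.6, 13.8 to 17.5 and 11.6 to 14.7). Hal and Cyp2f2 were lowest and could not be ordered. In αSMACreER;Foxf1-/- cells the order was Arg1, Glul, Ass1, Oat, Cyp2e1, Cps1 and Cyp1a2, each apart from the next. Cyp2f2, Gulo and Hal followed with overlapping intervals (1.92 to 3.43, 1.96 to 3.31 and 1.5 to 2.21). Glul, Arg1 and Ass1 together held 73.8% of the summed FPKM of the 10 genes in Foxf1fl/fl and 85.5% in αSMACreER;Foxf1-/-.

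Promoter sequences from RefSeq (GRCm38.p6) were read for 7 of the 10 genes, namely Glul, Cyp2e1, Cyp1a2, Oat, Ass1, Hal and Cyp2f2. The 250 bases before the RefSeq start are shown for a pericentral gene that stayed level (Glul), a pericentral gene that fell (Cyp2e1) and the periportal genes with the largest fall (Hal) and the fewest estimated reads (Cyp2f2), so that genes of opposite zones with the same direction can be set side by side. In Cyp2e1, Cyp1a2, Ass1 and Cyp2f2 the start in GENCODE lies upstream of that in RefSeq, and in Glul it lies downstream. Capitals mark matches on either strand to any of 7 motifs. General promoter elements searched were the TATA box, spelled TATAAA, and the CCAAT box. For the factors that answer Wnt signals the TCF/LEF core was used, spelled CTTTGA. For hepatocyte factors such as HNF4, a nuclear receptor that recognises AGGTCA, a match to those letters was taken, for HNF1 the letters GTTAAT were taken, and for C/EBP proteins the letters TTGCNNAA. The core element of the aryl hydrocarbon receptor was spelled GCGTG.
Glul, chr1:153899679-153899928, plus strand: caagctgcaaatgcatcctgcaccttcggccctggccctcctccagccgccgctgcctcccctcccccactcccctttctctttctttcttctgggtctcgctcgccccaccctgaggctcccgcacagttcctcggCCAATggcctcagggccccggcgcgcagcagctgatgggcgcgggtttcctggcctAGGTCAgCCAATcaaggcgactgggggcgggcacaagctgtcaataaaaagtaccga
Cyp2e1, chr7:140763569-140763818, plus strand: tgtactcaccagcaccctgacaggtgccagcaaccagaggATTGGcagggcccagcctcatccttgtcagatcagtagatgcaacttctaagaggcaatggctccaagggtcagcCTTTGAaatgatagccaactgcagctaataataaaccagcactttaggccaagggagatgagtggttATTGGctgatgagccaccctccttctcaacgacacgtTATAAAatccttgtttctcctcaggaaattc
Hal, chr10:93488518-93488767, plus strand: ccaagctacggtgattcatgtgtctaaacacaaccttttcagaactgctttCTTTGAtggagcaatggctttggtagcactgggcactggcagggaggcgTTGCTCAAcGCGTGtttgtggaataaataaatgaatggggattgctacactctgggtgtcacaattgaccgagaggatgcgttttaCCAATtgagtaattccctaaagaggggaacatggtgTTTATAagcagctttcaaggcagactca
Cyp2f2, chr7:27119705-27119954, plus strand: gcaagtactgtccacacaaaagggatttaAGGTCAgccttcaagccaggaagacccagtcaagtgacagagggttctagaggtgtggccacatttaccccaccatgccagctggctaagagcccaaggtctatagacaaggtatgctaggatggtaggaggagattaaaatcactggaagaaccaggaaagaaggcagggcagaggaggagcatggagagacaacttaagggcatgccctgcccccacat
The TATA box stood in 3 of the 7 promoters (Cyp2e1, Cyp1a2 and Hal) and in 12.4% of all 32851 promoters of this length. In Hal it stood on the strand opposite to transcription. The TCF/LEF core stood in the same 3, of which Hal is periportal, and in 13.8% of all promoters. In Cyp1a2 the TCF/LEF core was the match on the opposite strand. Neither the TATA box nor the TCF/LEF core was found in Glul, whose sequence is richer in G and C (64.8%) than that of Cyp2e1 (48.8%) or Hal (45.6%). AGGTCA was found in Glul and Cyp2f2 (14.0% of all promoters), the C/EBP letters in Hal (9.56%), GCGTG in Ass1 and Hal (28.2%), CCAAT in Glul, Cyp2e1, Oat and Hal (33.8%) and GTTAAT in 0 of 7 (6.43%). AGGTCA and CCAAT stand 1 base apart in Glul. These are matches of letters within a short window and not measured sites.

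As groups, the zones were both lower, and their ranges overlapped. The 5 pericentral genes had a median log2 difference of −1.50 (range −2.33 to −0.04) and the 5 periportal genes a median of −1.15 (range −1.74 to 0.42), against a median of 0.005 over all genes tested. The difference between the zone medians was −0.35. Of the 25 pairs of a pericentral and a periportal gene, the pericentral gene had the lower value in 16. Glul, Oat, Ass1 and Arg1 are also expressed by cells other than hepatocytes. Without them, Cyp2e1, Cyp1a2 and Gulo had a median of −1.84 and Cps1, Hal and Cyp2f2 a median of −1.16, a difference of −0.67. The pericentral gene was then lower in 8 of 9 pairs. Those left out include all the genes that did not fall (Glul, Oat and Arg1), so this gives no independent check. Genes also expressed by other cells were kept in the longer lists below.

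Longer lists of zonation genes did not show this order. Of 23 other pericentral genes, 22 were found, Rhbg having no entry matched, and 18 passed a mean FPKM of 1. Of these 18, 13 fell and 1 rose, with a median of −0.86. Of 19 other periportal genes, 18 passed, 13 fell and 1 rose, with a median of −1.06. Here the pericentral median was 0.21 higher than the periportal median, whereas among the first 10 genes it was lower. The order in these other lists was not stable, since the medians were −0.79 and −0.78 with a pseudocount of 1 and both −0.90 without a filter on low values. With all zonation genes together, 16 of 23 pericentral and 17 of 23 periportal genes fell, and the medians were −0.93 and −1.15. The share that fell was thus close between zones, and the order of the medians depended on which genes were listed and on how low values were treated. Some counted falls passed the filter through the control alone and are named for that reason. They were the pericentral Nr1i3 (1.635 FPKM in the control, 0.996 in the knockout) and the periportal Etnppl (1.501 and 0.569).

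Among the other pericentral genes with the highest levels, Cyp3a11, the main drug-metabolising cytochrome P450 of mouse liver, measured 58.3 FPKM in the control library and 21.8 FPKM in the knockout, a log2 difference of −1.44. Cyp2c29, another drug-metabolising enzyme from a cluster of close copies, had 49.3 and 19.9 (−1.33), and Cyp27a1, the sterol 27-hydroxylase of bile acid synthesis, had 25.8 and 13.8 (−0.93). All 3 fell, as did the secreted ribonuclease gene Rnase4 (57.3 and 36.7, −0.67). The retinal dehydrogenase gene Aldh1a1 had 32.1 and 22.8 (−0.52) and did not reach 1.5-fold. The gene that rose was Ahr, the aryl hydrocarbon receptor that drives Cyp1a2, with 7.06 and 15, a log2 difference of 1.05 (counting interval 0.88 to 1.22). Ahr thus moved opposite to Cyp1a2. Ahr is expressed widely, and it was named after its value was seen.

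Among the other periportal genes with high levels, Fbp1, the gluconeogenic fructose bisphosphatase, measured 51.4 FPKM in the control library and 13.3 FPKM in the knockout. It fell, and its log2 difference of −1.97 was the lowest value of that list. The 2 highest genes of the list stayed within 1.5-fold. Ctsc, a lysosomal protease gene that immune cells also express, had 389 and 436 (0.14), and Igf1, which encodes the growth factor IGF1 and is also expressed by macrophages, had 135 and 130 (−0.08). The gene that rose was Sdsl, a serine dehydratase-like gene named after its value was seen, at 1.35 and 2.13, a log2 difference of 0.60 whose counting interval (−0.24 to 1.45) spans 0.

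**Figure D3:**
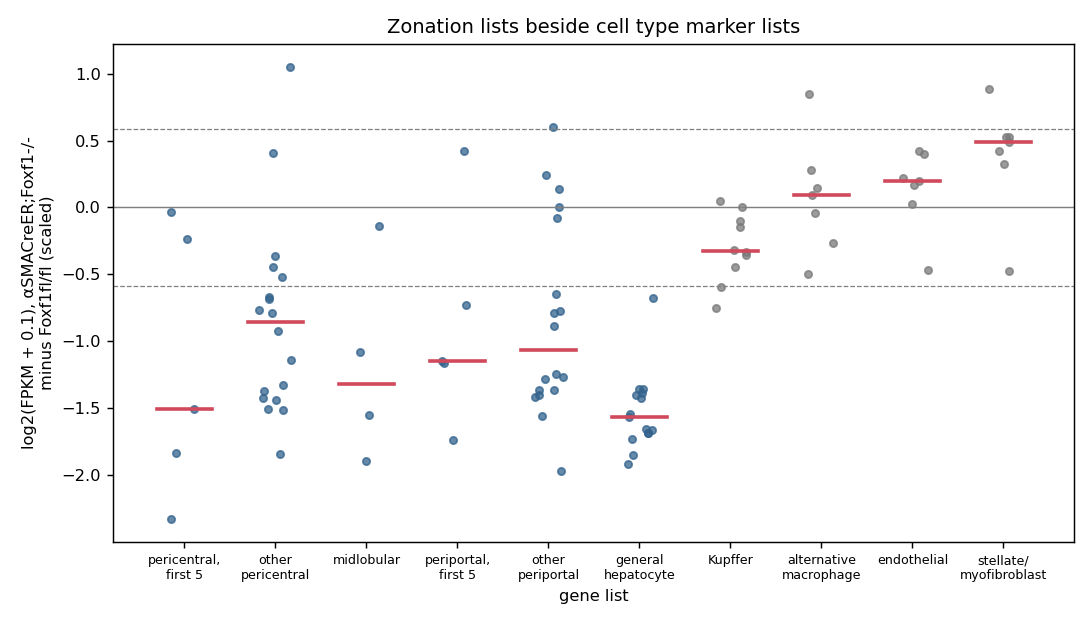
Log2 difference, αSMACreER;Foxf1-/- minus Foxf1fl/fl (vertical axis), of each gene averaging 1 FPKM or more (points) in zonation and hepatocyte lists (blue) and in marker lists of other cell types (grey), with the median of each list (red bar) and the 1.5-fold lines (dashed). The zonation, midlobular and general hepatocyte medians lie between −1.57 and −0.86, and the 4 grey lists have medians between −0.33 and 0.49.

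The members belong to short pathways whose other steps were read as well. Otc, Asl, Uroc1, Rgn, Gls2 and Slc1a2, given below, were also in the longer zonation lists. The pathway counts are thus partly of the same genes. In the urea cycle, 6 of 8 genes fell. Otc, the ornithine transcarbamylase between Cps1 and Ass1, had 8.25 in the control and 3.42 in the knockout (log2 difference −1.27). Asl, the argininosuccinate lyase after Ass1, had 56.9 and 33.5 (−0.79), and Nags, which makes the activator of CPS1, had 2.43 and 0.759 (−1.58). Nags passed the filter on low values through the control alone. The ornithine carrier gene Slc25a15 had 6.15 and 4.02 (−0.63) and also fell, and the aspartate carrier gene Slc25a13 had 3.26 and 2.38 (−0.46) and did not. With Cps1 and Ass1, every enzyme of the cycle thus fell except Arg1.

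All 4 genes of histidine breakdown fell. After Hal come Uroc1 (urocanase), with an FPKM of 7.94 in the control and 3.08 in the knockout (log2 difference −1.37), Amdhd1 (imidazolonepropionase), with 3.25 and 0.921 (−1.74), and Ftcd (formiminotransferase), with 6.81 and 3.14 (−1.12). Amdhd1 and Hal, which are neighbours on chromosome 10, had the same value to 2 decimals. Amdhd1 passed the filter through the control alone. Of the 4 genes of vitamin C synthesis, 2 fell. Rgn, the lactonase before Gulo, had 18.9 and 6.65 (−1.52). The earlier and more widely expressed genes did not fall, with Ugdh (UDP-glucose dehydrogenase) at 34.1 and 47.2 (0.44) and Akr1a1 (an aldehyde reductase) at 505 and 420 (−0.29).

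Of the 6 measured genes of glutamine, ornithine and ammonium handling, 2 fell. They were Gls2, the periportal liver glutaminase that releases ammonium for the urea cycle, with 14.1 in the control and 6.0 in the knockout (log2 difference −1.24), and Slc38a3, a glutamine transporter of perivenous hepatocytes, with 16.6 and 6.97 (−1.26). Glud1, the glutamate dehydrogenase found in most cells, had 107 and 111 (0.04). Slc1a2, a glutamate transporter of pericentral hepatocytes, had 1.71 and 1.33 (−0.37), with a counting interval from −1.04 to 0.31. Glul and Oat, given above, were the others within 1.5-fold.

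Most Wnt genes that pattern the lobule stayed within 1.5-fold. Of 15 listed, 8 passed a mean FPKM of 1, and of these 2 rose, 1 fell and 5 stayed within 1.5-fold, with a median of 0.23. Among all genes 12.8% rose and 13.2% fell. Of the 8, 6 lay above 0 and 2 below. Axin2, Lgr5 and Tbx3, given below, are in this list and among the other pericentral genes. Ctnnb1 (β-catenin) measured 121 FPKM in the control library and 162 FPKM in the knockout (log2 difference 0.39), Wnt2, a ligand made by liver endothelium, had 14.3 and 12.1 (−0.26), and Tcf7l2, a TCF factor, had 8.21 and 8.77 (0.07). Rnf43, named after its value was seen, and Apc rose. Rnf43 had 0.499 and 1.94 (1.74) on about 18.1 and 80.4 reads, and it passed the filter through the knockout alone. Apc, an inhibitor of β-catenin with a longest transcript of 12811 bases, had 3.27 and 7.91 (1.22), and Nkd1 had 2.94 and 3.01 (0.01). Sp5 was listed at 0 in both libraries. The gene that fell was Notum, a secreted Wnt inhibitor and pericentral Wnt target, with 2.17 and 0.533 (−1.86) on about 41 and 11.6 reads. It passed the filter through the control alone.

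Pericentral Wnt targets with low values were also read, and were named after their values were seen. Lgr5, the R-spondin receptor of pericentral hepatocytes, measured 0.669 FPKM in the control library and 0.0209 FPKM in the knockout, or about 16.2 reads and under 1 read. Tbx3, a transcription factor, had 0.947 and 0.160, or about 43.6 and 8.42 reads. Both lay below the filter on low values and were not counted in the lists. Axin2, a feedback inhibitor induced in many Wnt-responsive cells, had 1.16 and 1.60 (log2 difference 0.41, counting interval −0.14 to 0.96). Of 4 midlobular genes 3 fell, with a median of −1.32. Hamp, which encodes the iron hormone hepcidin, had 230 and 110 (−1.08), Igfbp2 had 26.4 and 9.12 (−1.55) and Cyp8b1, the sterol 12α-hydroxylase, had 2.72 and 0.669 (−1.90). Of these, Cyp8b1 passed the filter through the control alone. Hamp2 had 5.82 and 5.38 (−0.14) on about 13.2 and 14.0 reads.

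General hepatocyte genes moved with the zonation genes. All 15 genes for plasma proteins fell, with a median log2 difference of −1.57 (range −1.92 to −0.68). Alb measured 2292 FPKM in the control library and 912 FPKM in the knockout (−1.36), Apoa2, an apolipoprotein of high-density lipoprotein, had 782 and 220 (−1.85), and Trf (transferrin) had 881 and 560 (−0.68). The 15 genes held 0.918% of the summed FPKM in Foxf1fl/fl and 0.402% in αSMACreER;Foxf1-/-. In pooled RNA of this kind, fewer hepatocytes and less of these RNAs per hepatocyte cannot be told apart. Glul, Oat and Arg1 lay above all 15 of these genes.

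Most markers of other cell types stayed within 1.5-fold, apart from those of neutrophils, which all fell. Of 10 Kupffer cell genes 2 fell (median log2 difference −0.33), and their summed FPKM was 8845 in the control and 7630 in the knockout. Lyz2 had 3682 and 3395, Cd5l had 1391 and 1122, and Marco had 1168 and 929. Of 7 genes read because of Arg1, mainly of alternative macrophage activation, 0 fell and 1 rose (median 0.10). Chil3 had 656 and 739, Mrc1 had 77.2 and 95.7 and Arg2 had 81.6 and 80.6. The gene that rose was Nos2, a marker of classical and not alternative activation, named after its value was seen. It had 4.0 and 7.5 (log2 difference 0.85). Of 5 genes of monocyte-derived macrophages, 7 endothelial genes, 4 lymphocyte genes and 2 erythroid genes that passed the filter, 0 fell and 0 rose, with medians of 0.47, 0.20, 0.27 and −0.02. Of 7 stellate cell and myofibroblast genes 1 rose and 0 fell (median 0.49), with Dcn, Col3a1 and Col1a1 at 0.53, 0.49 and 0.52, and of 4 cholangiocyte genes 1 fell (median 0.004). The neutrophil genes S100a8 and S100a9 fell, from 625 to 256 (−1.31) and from 1258 to 504 (−1.35), and Ly6g had 9.82 in Foxf1fl/fl and was listed at 0 in αSMACreER;Foxf1-/-. Ly6g passed the filter through the control alone. The part of any of these cell types in the values of Glul, Oat and Arg1 was not tested.

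Set against the general hepatocyte genes instead of all genes, the zonation genes spread to both sides. With values scaled by the median ratio of those 15 genes, 4 of the 10 rose and 1 fell. Of all 12692 genes, 11846 rose and 184 fell under that scaling. Gulo (−0.80), Cyp2e1 (−0.27) and Hal (−0.23) were then below 0. Of these, Gulo lay below all 15 hepatocyte genes, whereas Cyp2e1 and Hal lay within their range. Cyp1a2 (0.05), Cyp2f2 (0.37), Ass1 (0.42) and Cps1 (0.83) were above 0. Cyp1a2 also lay within that range, but Cyp2f2, Ass1 and Cps1 lay above every one of the 15 except Trf. Under the main scaling Trf was at −0.68 and the next highest, Alb, at −1.36. Cyp2f2, Ass1 and Cps1 were at −1.16, −1.15 and −0.73 there. The trend over transcript length, described below, was not removed in this comparison. The longest transcript of Cps1 has 5555 bases, and those of the 15 run from 518 (Apoa2) to 4970 (Serpinc1). Glul (1.53), Oat (1.33) and Arg1 (1.99) stood above all 15. As a percentage of the FPKM of Alb, Cyp2e1 was 4.12% in the control and 2.94% in the knockout, Cps1 was 0.720% and 1.11%, and Arg1 was 10.0% and 34.4%. The zone medians were then 0.05 for pericentral and 0.42 for periportal genes. Their difference, −0.37, was close to that under the main scaling, because 1 divisor shifts both medians nearly alike.

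**Figure D4:**
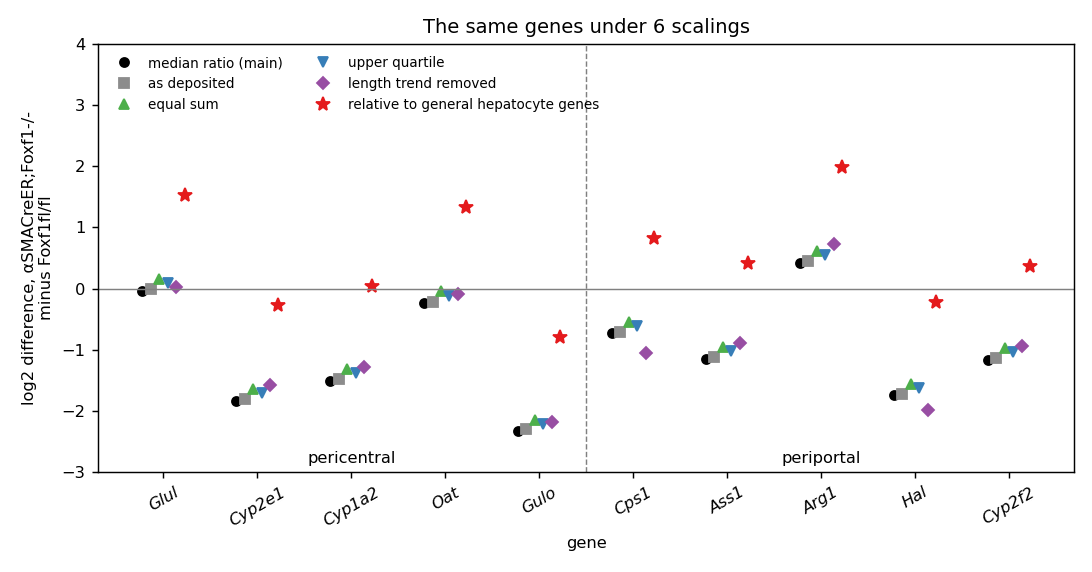
Log2 difference of each zonation gene, αSMACreER;Foxf1-/- minus Foxf1fl/fl (vertical axis), under 6 ways of scaling or correcting the values (symbols). Scaling to the general hepatocyte genes (red stars) raises every gene, and Oat, Cps1, Ass1, Cyp2f2 and Cyp1a2 lie above 0 only there. Arg1 lies above 0 under all 6. Glul also lies above 0 at an equal FPKM sum, at the upper quartile and with the length trend removed.

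Transcript length also moved with the differences. Across the 12692 genes the log2 difference rose with the longest annotated transcript (Spearman's rho 0.45, across genes, which are not independent replicates). Cps1 and Hal have the longest transcripts of the 10 genes, 5555 and 5319 bases, and the other 8 have between 1477 and 2792 bases. With the median of each of 20 length groups subtracted, Cps1 had a log2 difference of −1.06 in place of −0.73 and Hal −1.98 in place of −1.74. Cyp2e1, Cyp1a2 and Gulo had −1.58, −1.29 and −2.19. The zone medians were then −1.29 and −0.94, and the same 7 genes fell. The part of RNA length in these values was not tested otherwise.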

How the data were processed

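RNA-seq of adherent liver cells was analysed, with 1 pooled library for each genotype. Per the labels and the study's methods, the authors made TruSeq libraries, sequenced single-end reads of 75 bases, aligned them with TopHat to mm10 and deposited Cufflinks FPKM values for each Ensembl gene. No read counts were analysed here. FPKM depends on the annotated transcript length, and reads shared between close copies may be split by the counting. Symbols came from GENCODE M21 (36490 of 38320 entries). The 3 entries that failed in either library were left out, and a repeated symbol was represented by its most highly expressed entry. Coordinates are 1-based on GRCm38.

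Knockout values were scaled by the median ratio over 11871 genes that reached 1 FPKM in each library, with a pseudocount of 0.1 on the log2 scale. Folds are ratios of scaled FPKM without it. The filter on low values used the mean of both libraries, so some genes passed it through 1 library alone. Models for counts need whole reads, so none was run on FPKM. Approximate 95% counting intervals used estimated reads, an assumed fragment of 200 bases and the median GENCODE basic transcript. The genes and lists were chosen with earlier results of these data known. Genes named were the 10 members, all genes of the pathway lists, the 5 highest of each zonation and Wnt list with any at 0 in both libraries, and from each marker list up to its 3 highest; lists of which 0 or 1 gene changed are mostly given by counts. Exceptions are stated, and 1 gene that the rule names is not reported here. Simulated data with known changes were used to check the calculations. Alternatives changed the pseudocount, scaling, filter, fold, repeated symbols, length and the members used. Tables were computed in Python 3.11.15 with pandas 2.3.3, statistics with scipy 1.17.1 and numpy 2.4.6, and plots with matplotlib 3.10.9.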

Additional observations from a re-analysis of the deposited data

How the results depend on the processing

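No paired analysis was possible because the labels give a single library per genotype, and none could be left out. Changing the pseudocount to 0.01, using the values as deposited or summing the entries of a symbol moved no zone median, count or single member beyond its counting error. The difference between the zone medians of the 10 genes kept its sign under each alternative. However, 1 divisor shifts both medians nearly alike, so the scalings could hardly have changed it, and the fold and filter do not enter it. It was −0.42 with a pseudocount of 1 and −0.34 with the length trend removed. A pseudocount of 1 moved the periportal median from −1.15 to −0.94 and that of the other periportal genes from −1.06 to −0.78, below which the other pericentral genes then lay at −0.79. With an equal FPKM sum the zone medians were −1.31 and −0.96 and 1 of the 10 genes rose in place of 0, and with the length trend removed they were −1.29 and −0.94 and again 1 rose. Without Glul, Oat, Ass1 and Arg1 the pericentral median was −1.84 and the difference between the zones −0.67. Scaling to the general hepatocyte genes, which by construction sets their median near 0, gave 0.045 and 0.42 for the zones, 0.70 and 0.49 for the other pericentral and periportal genes, 1 gene that fell and 4 that rose, and, as it raises all genes alike, put Cyp1a2 (0.045), Cps1 (0.83), Ass1 (0.42), Cyp2f2 (0.37), Glul (1.53) and Oat (1.33) above 0. At 2-fold 6 of the 10 genes fell, and over all genes 788 fell and 552 rose. Without a filter 3225 fell and 3832 rose, and with the filter raised to 5 FPKM 943 fell and 685 rose. Relative to the general hepatocyte genes 184 of all genes fell and 11846 rose. Depth limits Cyp2f2 and Gulo most, at about 48.9 and 60 reads in αSMACreER;Foxf1-/-.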

Other observations

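Ratios between genes within each library, all of the 10 except Gls2 and all as FPKM, carry no scaling between the libraries. The trend over transcript length was not removed from them. With it removed, the log2 difference was −1.06 in place of −0.73 for Cps1, −1.58 in place of −1.84 for Cyp2e1 and 0.73 in place of 0.42 for Arg1. Glul over Cyp2e1, both pericentral, went from 2.17 (Foxf1fl/fl) to 7.56 (αSMACreER;Foxf1-/-), a log2 change of 1.80 (counting interval 1.63 to 1.97). Arg1 over Ass1, both of the urea cycle, was 1.45 and 4.33 (1.57, from 1.45 to 1.69), and Arg1 over Cps1 was 13.9 and 31.1 (1.15, from 0.99 to 1.31). Cyp2e1 over Cyp2f2, cytochrome P450 genes of opposite zones, was 16.2 and 10.4, or −0.67 on the log2 scale (−1.18 to −0.17). Glul over Oat was 3.49 and 4.01 (0.20, from 0.07 to 0.33). Cps1 over Cyp2e1, of opposite zones, was 0.175 and 0.376 (1.10, from 0.89 to 1.32), and Glul over Gls2, also of opposite zones, was 14.5 and 33.9 (1.21, from 0.94 to 1.48). Ratios within a zone thus included large and small changes, and those given between zones all passed 1.5-fold. There was 1 library for each genotype and no test.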
